A study of Mus musculus with 20 samples.

Results

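Extraocular muscle, which moves the eye, was compared with leg muscle in control mice. The members were chosen by sample title: the 5 arrays of 8-week-old control extraocular muscle and the 5 arrays of 8-week-old control leg muscle, 10 of the series' 20 arrays. The source of the leg samples is given as gastrocnemius and soleus, without a proportion. The other 10 arrays are of the same muscles from 8-week-old mdx mice, which lack functional dystrophin. They serve as a second reading of the muscle difference. They also enter the filter of probe sets, the choice of the brightest probe set of a gene and the shared spread of the fit. Total RNA was hybridised to one-colour Affymetrix arrays. The labels give neither the strain nor the sex of the control mice, nor the number of animals behind an array, so the tests weigh differences against the scatter among these arrays, part of which may be technical.

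Adult limb muscle is built mainly from fast fibres that burn glycogen and from a smaller number of slow oxidative fibres. The extraocular muscles arise from head mesoderm, contract very fast and without long rest, hold singly and multiply innervated fibres side by side, and have many small motor units with dense nerve and vessel supply. They are largely spared in Duchenne muscular dystrophy. These facts are background and were not measured here.

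A value is a scaled signal in array units, set so that the trimmed mean of all non-control probe sets is 500 on every array. Signals are given in the order of arrays 1 to 5 or as mean ± SD (n = 5 in each group). A fold is the difference of mean log2 signals after a floor of 50, taken out of the log scale, so it is a ratio of geometric means and can lie above or below the ratio of the arithmetic means printed beside it. It is written as at least where an array of the dimmer group lay below that floor and the ratio of arithmetic means was no smaller. A probe set passed when its limma p, adjusted by the Benjamini-Hochberg method over the 7204 probe sets tested, was under 0.05. The fit was repeated 10 times with a single control array omitted. Signals of different probe sets are not comparable as transcript amounts. In whole tissue, fewer cells of a type and less RNA per cell cannot be told apart.

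Both groups carried the transcripts that define skeletal muscle. Of 15 tested muscle-defining genes (20 listed, 17 on the array), Mylpf passed as higher in extraocular muscle and Pygm as lower (1 higher and 0 lower without leg arrays 1 and 4, which are described next). Their summed signal ran from 89955 to 130102 on the extraocular arrays and from 78307 to 204254 on the leg arrays (exact permutation p = 0.770, two-sided). Ckm, Ttn and Neb were not among the tested genes of this list. Myh2 and Tnnc2 stayed under 200 on every array (18.4 to 75.5 in extraocular and 28.9 to 163 in leg muscle for Myh2, 7.81 to 32.2 and 7.74 to 14.1 for Tnnc2), so their probe sets may not read these genes. On each of the 10 arrays between 47.2% and 51.9% of probe sets reached a signal of 200. The 3' to 5' log2 ratio of the Actb control probe sets was 0.08 ± 0.20 on extraocular and 0.50 ± 0.37 on leg arrays (exact permutation p = 0.0714), and that of Gapdh was -2.35 ± 0.84 and -2.48 ± 0.84 (exact permutation p = 0.810).

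Leg arrays 1 and 4 stood apart from the other leg arrays, and results are therefore given with and without them. The array labelled leg control 4 was at or below the floor for Myl2, Myl3 and Tnnc1, 3 genes of slow fibres, with signals of 45.2, 22.0 and 28.6. The other 4 leg arrays read 8608 to 20216 for Myl2 and 1915 to 9064 for Tnnc1. On that array the gland transcripts Tff2, Wfdc18 and Pip reached 5995, 5323 and 868, where the other leg arrays read at most 112, 314 and 51.4. The salivary transcript Bpifa2 was at 8892 there, against 78.1 to 828 on the other leg arrays and 3578 to 4634 on the extraocular arrays. Hoxc9 and Hoxd8, which specify trunk and limb position, lay at 88.8 and 94.9, far below the other leg arrays. These genes were picked after the values of the array had been seen. Leg array 1 correlated least with the rest of its group (mean r = 0.892) and had the highest leg signals of many abundant fibre genes, among them Csrp3 at 10386.5 and Ankrd2 at 12186.

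The muscles differed at 1275 of the 7204 probe sets (17.7%), of which 741 (10.3%) were higher and 534 (7.41%) lower in extraocular muscle. At least 2-fold differences that passed numbered 445 (6.18%), with 300 (4.16%) higher and 145 (2.01%) lower. For 974 probe sets (13.5%) the 5 extraocular and the 5 leg arrays did not overlap. Lack of overlap was a condition by which the largest differences were chosen for naming. For those genes it is a description and no further evidence. Without leg arrays 1 and 4 the number that passed was 1082 (611 higher and 471 lower); 932 of these also passed with all arrays, and 0 of the 1275 changed sign. By gene, each read by its brightest tested probe set, 1046 of 5468 (19.1%) passed, 614 (11.2%) higher and 432 (7.9%) lower, with a median log2 difference of 0.04. These shares are the background for each gene list below.

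**Figure D1:**
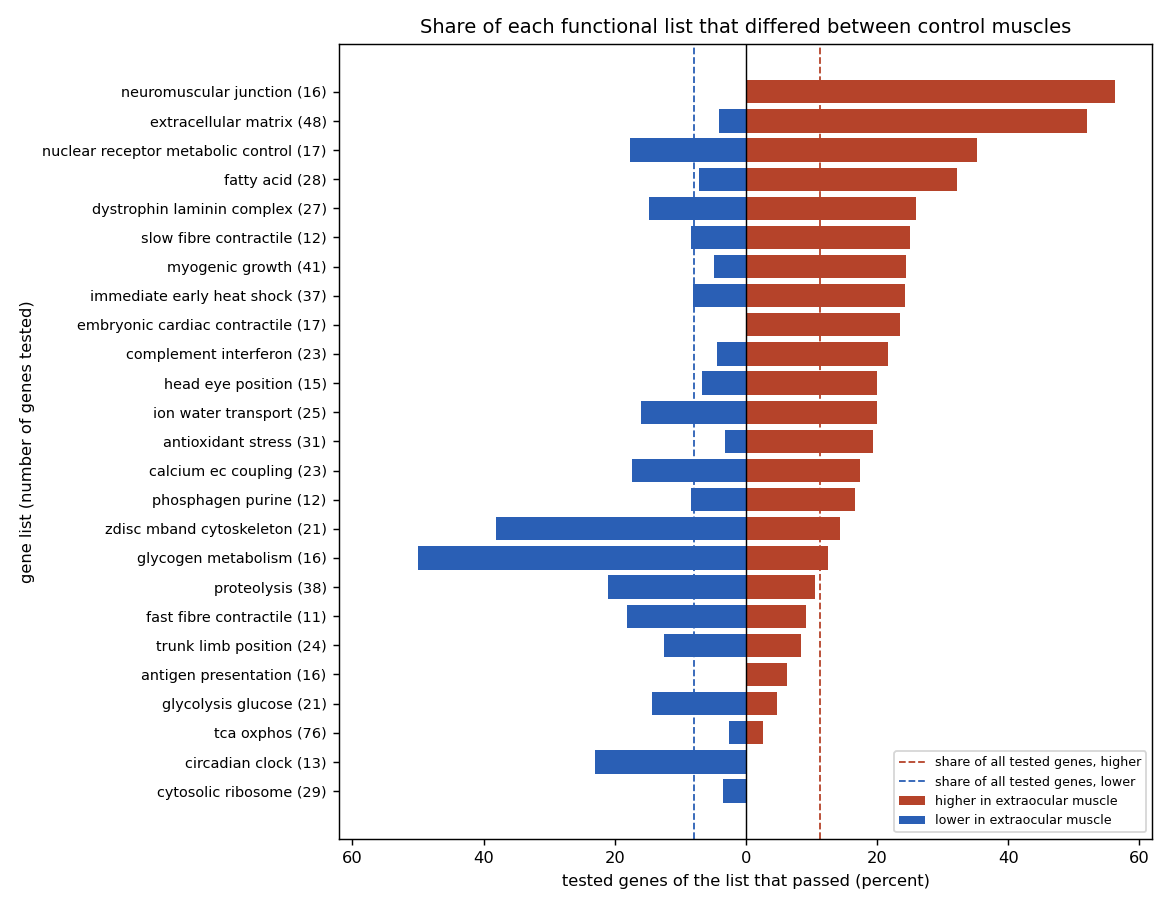
Percentage of the tested genes of each of 25 functional lists that passed as higher (right, red) or lower (left, blue) in control extraocular than in control leg muscle, with the number of genes tested in brackets and dashed lines at the shares of all 5468 tested genes (11.2% higher, 7.9% lower). The neuromuscular junction and extracellular matrix lists have the longest bars to the right, and the glycogen and the Z-disc and M-band lists the longest to the left.

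The neuromuscular junction, where the motor nerve releases acetylcholine onto the fibre, was the one of the 25 functional lists with the largest share of higher genes. Of 16 tested genes (30 listed), 9 were higher and 0 lower in extraocular muscle (56.2% against 11.2% of all genes), with a median log2 difference of 0.75. The higher count was 8 whenever 1 control array was left out, as the call of the brightest Chrne probe set was then lost. With all arrays, the lead over the extracellular matrix list (52.1% higher) depends on that gene. The receptor is a ring of 5 subunits, and adult and fetal forms differ in holding an epsilon or a gamma subunit. The starts of 3 of its subunit genes are shown because these genes were higher together. The 250 bases before the RefSeq start (GRCm38.p6) are printed 5′ to 3′ on the gene's strand, which is the minus strand for all of them, with E-boxes (CANNTG, the element bound by the MyoD family) and N-boxes (CCGGAA, an element known from synaptic genes) in capitals.
Chrna1, chr2:73580339-73580588: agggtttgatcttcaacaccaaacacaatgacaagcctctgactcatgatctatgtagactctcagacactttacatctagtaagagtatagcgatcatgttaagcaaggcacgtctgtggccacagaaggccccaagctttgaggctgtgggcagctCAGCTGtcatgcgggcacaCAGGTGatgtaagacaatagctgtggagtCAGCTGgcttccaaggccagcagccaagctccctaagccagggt
Chrnb1, chr11:69795938-69796187: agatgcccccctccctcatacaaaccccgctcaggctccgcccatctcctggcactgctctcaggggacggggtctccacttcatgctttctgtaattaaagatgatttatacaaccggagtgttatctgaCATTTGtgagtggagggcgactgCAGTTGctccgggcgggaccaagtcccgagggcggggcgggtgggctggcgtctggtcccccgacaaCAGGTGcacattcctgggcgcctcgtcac
Chrne, chr11:70619195-70619444: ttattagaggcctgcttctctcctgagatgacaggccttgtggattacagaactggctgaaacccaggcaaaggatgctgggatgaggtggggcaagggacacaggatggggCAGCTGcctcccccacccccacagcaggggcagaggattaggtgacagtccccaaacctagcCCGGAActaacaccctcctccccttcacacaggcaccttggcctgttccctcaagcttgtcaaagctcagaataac
Both strands were searched. Chrna1 and Chrnb1 each held 3 E-boxes, which begin 92, 73 and 44 bases before the Chrna1 start and 119, 96 and 29 before that of Chrnb1. Chrne held 1 E-box 138 bases and 1 N-box 76 bases before its start, with no overlap of the motifs. Among 32851 promoter windows of this kind, 66.2% held an E-box, 12.2% held 3 or more, and 12.03% held an N-box. These matches describe letters only.

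Chrna1, the alpha subunit that binds acetylcholine, read 1463, 1513, 1506, 1523 and 2171 on the extraocular arrays and 219, 362, 221, 319 and 249 on the leg arrays. All extraocular arrays lay above all leg arrays, with extraocular array 5 the highest. The difference was 6.03-fold (log2 2.59, SE 0.17, limma adjusted p = 3.83e-10). Chrnb1, the beta subunit, read 1511, 1922, 1850.4, 1932 and 2134 against 882, 1013, 903, 903 and 639.6. Again the groups did not overlap, and the difference was 2.16-fold (adjusted p = 4.77e-05). Chrnd, the delta subunit, was 3.04-fold higher (253 ± 45.5 against 91.8 ± 70.6, adjusted p = 0.00337), although leg array 3 at 211 lay above extraocular array 2 at 180.

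The adult-type epsilon subunit, Chrne, has 3 tested probe sets, which disagreed in size. The one with the largest difference read 989, 1162, 1337, 1147 and 934 on extraocular and 75.2, 166, 87.9, 260.5 and 17.4 on leg arrays. It was 10.3-fold higher (adjusted p = 4.69e-06), with leg array 4 the highest of the leg arrays and leg array 5 below the floor. The brightest probe set differed by a log2 of 0.78 (adjusted p = 0.0485), a call lost in all 10 omissions (highest adjusted p 0.105, omitting extraocular array 1). The remaining probe set did not pass (log2 0.95, adjusted p = 0.126). Chrng, the fetal-type gamma subunit, is named although it fell outside the naming rule, after its values were seen. It read 144, 328, 343, 105 and 123 on extraocular and 102, 384, 537, 123 and 744 on leg arrays, with wide overlap (log2 -0.64, adjusted p = 0.472), and -1.54 without leg arrays 1 and 4 (adjusted p = 0.0391).

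Other synaptic genes moved the same way. Ache, the enzyme that clears acetylcholine, read 1482, 1087, 1222, 1169.5 and 1622 on extraocular and 253, 435, 462, 406 and 348 on leg arrays. No arrays overlapped, and the difference was 3.49-fold (adjusted p = 3.57e-05). Prkar1a, a regulatory subunit of protein kinase A found at the synapse, was 2.43-fold higher (11520.3 ± 1418 against 4716 ± 409.8, adjusted p = 2.43e-08). Erbb3, a receptor for neuregulin made by Schwann cells and fibres, was 2.94-fold higher, and the synaptic laminin chain Lamb2 1.64-fold. Gdnf, a survival factor of motor neurons, was 1.79-fold higher (370.0 ± 70.0 against 208 ± 51.0, adjusted p = 0.0155). Rapsn, Agrn, Colq, Utrn, Ncam1 and Bdnf were tested and did not pass. Without leg arrays 1 and 4, 8 genes of the list were higher and 1 lower, the latter Chrng.

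**Figure D2:**
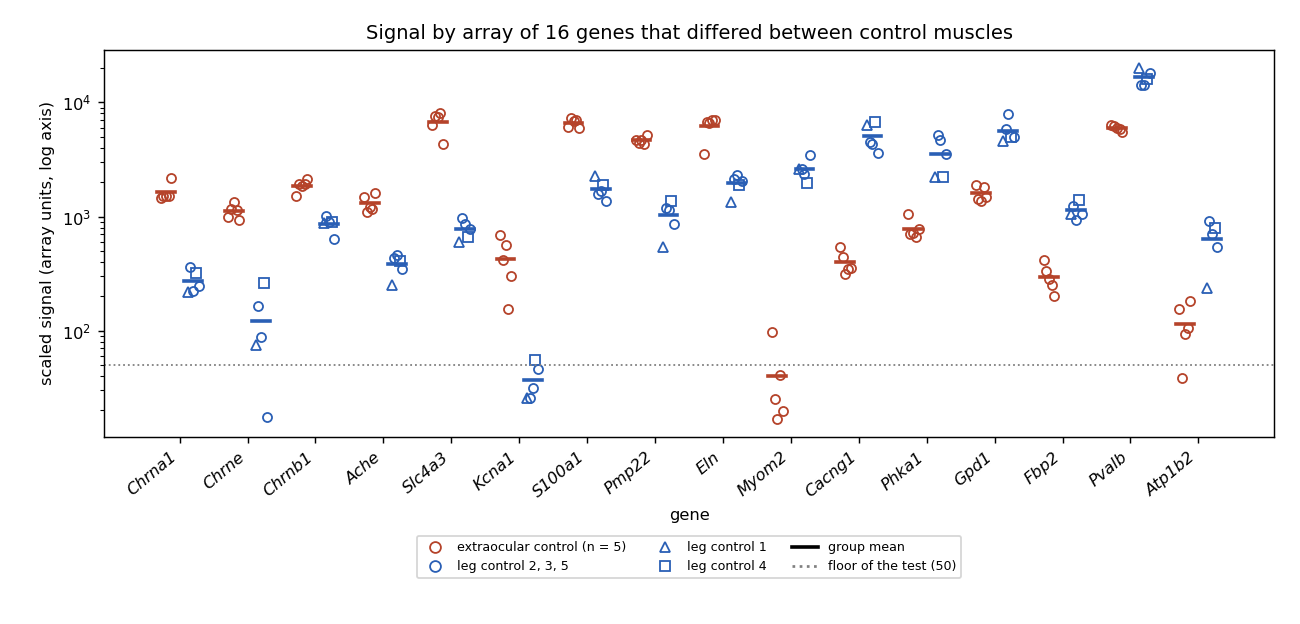
Scaled signal (log axis) of 16 genes on the 5 control extraocular arrays (red) and the 5 control leg arrays (blue; triangle, leg array 1; square, leg array 4), with bars at the group means and a dotted line at the floor of 50 used in the test. The first 9 genes are higher and the last 7 lower in extraocular muscle, and for each the 2 groups of arrays do not overlap, which was among the conditions by which some of these genes were chosen.

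Membrane transport genes held some of the widest gaps in both directions. Slc4a3, an exchanger of chloride for bicarbonate, read 6400.2, 7573, 7412, 8092 and 4338 on extraocular and 604, 964, 853, 658 and 785 on leg arrays. Extraocular array 5, the lowest of its group, was still above every leg array, and the difference was 8.67-fold (log2 3.12, SE 0.17, adjusted p = 2.52e-11). Kcna1, a voltage-gated potassium channel known from axons, read 686, 419, 564, 156 and 301 against 25.8, 25.5, 31.5, 55.9 and 46.1. Leg arrays were at or near the floor, so the difference was at least 7.38-fold (adjusted p = 3.91e-06). Atp1b2, a beta subunit of the sodium pump, ran the other way with 156, 38.4, 93.6, 106 and 182 against 236, 921, 702, 787 and 536. It was at least 5.40-fold lower in extraocular muscle (adjusted p = 3.2e-05), while Atp1b1, another beta subunit, was 1.77-fold higher (328 ± 38.1 against 191 ± 56.8, adjusted p = 0.0193). The Atp1b1 call ended without leg array 2 (adjusted p = 0.0548) and without leg arrays 1 and 4 (0.121).

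Slc12a2, the cotransporter of sodium, potassium and chloride, was 1.98-fold lower (1507 ± 101 against 2989 ± 185, adjusted p = 0.000312). Clcn1, the chloride channel that steadies the resting potential of fibres, was 1.84-fold lower (1563 ± 398 against 2819 ± 366, adjusted p = 0.0237). The Clcn1 call was lost in 3 of 10 omissions (highest adjusted p 0.0743, omitting extraocular array 2), and without leg arrays 1 and 4 (0.0677). Over the whole list of ion and water transport, 5 of 25 tested genes (39 listed) were higher and 4 lower. That was 20% and 16%, against 11.2% and 7.9% of all genes. Without leg arrays 1 and 4 these counts were 5 and 3. The lower count was 2 without extraocular array 2, without extraocular array 4 or without leg array 4. The water channels Aqp1 and Aqp4 and the potassium channels Kcnj8, Kcnj11 and Kcnj12 did not pass.

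Genes that couple excitation to calcium release were split. Cacng1, the gamma subunit of the calcium channel of the transverse tubule, read 539, 438, 314, 345 and 354 on extraocular and 6398, 4475, 4288, 6727 and 3576 on leg arrays. The 2 ranges were far apart, and the signal was 12.7-fold lower in extraocular muscle (log2 -3.66, SE 0.18, adjusted p = 2.36e-12). S100a1, a calcium-binding protein that acts on the release channel, read 6032, 7239.6, 6929, 6957 and 6023 against 2249, 1589, 1678, 1894 and 1371. It was 3.82-fold higher with no overlap (adjusted p = 8.04e-11). Asph, whose locus also encodes the release-complex protein junctin, was at least 2.83-fold higher (adjusted p = 0.000709). Pvalb, a calcium buffer of fast fibres, read 6279.6, 6265, 5922, 5798 and 5488 on extraocular and 20213, 14305, 14346, 15888 and 18137 on leg arrays. This brightest Pvalb probe set was 2.76-fold lower without overlap (adjusted p = 2.73e-08), but another probe set of the gene pointed the other way without passing (log2 1.62, adjusted p = 0.0840).

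Rcan1, an inhibitor of the calcium-dependent phosphatase calcineurin, was 2.52-fold lower (1090.2 ± 165 against 2723 ± 191, adjusted p = 1.15e-06). Ppp3cb, a catalytic subunit of calcineurin, was 1.70-fold lower (adjusted p = 0.0213, up to 0.0634 without leg array 5, with the call lost in 3 of 10 omissions). Camk2b was 1.29-fold higher (adjusted p = 0.0372), a call kept in 2 of 10 omissions (highest adjusted p 0.1001, omitting leg array 4) and lost without leg arrays 1 and 4 (0.0717). In all, 4 of 23 tested genes (41 listed) were higher and 4 lower, 17.4% each against 11.2% and 7.9% of all genes. Without leg arrays 1 and 4 they numbered 3 and 4. The release channel Ryr1, the voltage sensor Cacna1s and the pump genes Atp2a1 and Atp2a2 did not pass.

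Slow fibre genes depended on leg arrays 1 and 4. With all arrays, 3 of 12 tested genes (15 listed) were higher and 1 lower (25% and 8.33%, against 11.2% and 7.9% of all genes). Without leg arrays 1 and 4, 5 were higher and 2 lower. The higher count was also 5 without leg array 1 alone, and the lower count was 3 without leg array 4 alone. Myl6b, a light chain of slow and embryonic muscle, read 2309.6, 1654, 1533, 1732 and 2095 on extraocular and 1068, 619, 601, 501 and 734 on leg arrays. It was 2.71-fold higher with no overlap (adjusted p = 3.44e-06). Casq2, the slow-fibre calsequestrin that stores calcium, was 2.09-fold higher (877 ± 65.1 against 433 ± 129, adjusted p = 0.000217), and the slow troponin T gene Tnnt1 1.69-fold (adjusted p = 0.0168), while its other probe set did not pass (log2 0.25).

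Myl3, the light chain shared by slow fibres and heart ventricle, read 768, 960.2, 1141, 836 and 1094 on extraocular arrays and 16594, 8986, 8021, 22.0 and 5769.5 on leg arrays. Every extraocular array lay below leg arrays 1, 2, 3 and 5 and above leg array 4. The difference did not pass with all arrays (log2 -1.76, adjusted p = 0.225), and was -2.98 without leg arrays 1 and 4 (adjusted p = 2.32e-08). Myl2, its partner light chain, read 7437, 9487, 9786, 6668 and 9173 against 20216, 8608, 8722, 45.2 and 11222. It did not pass in either fit (log2 1.13 and -0.17, adjusted p = 0.491 and 0.662), and its sign depended on leg array 4. Tnnc1 and Tnni1, slow troponin genes, did not pass with all arrays (log2 1.80 and 1.29) and were higher without leg arrays 1 and 4 (log2 1.03 and 0.90, adjusted p = 0.00233 and 0.000932). Ankrd2, a stretch-responsive gene of slow fibres, read 890.3, 645, 645, 637 and 548 on extraocular and 12186, 2505, 2986, 730.1 and 2248 on leg arrays. It was 4.10-fold lower (adjusted p = 0.00176), and leg array 4 alone of its group overlapped the extraocular range. Myh7, the slow myosin heavy chain, did not pass in either fit (log2 0.69 and 0.37).

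**Figure D3:**
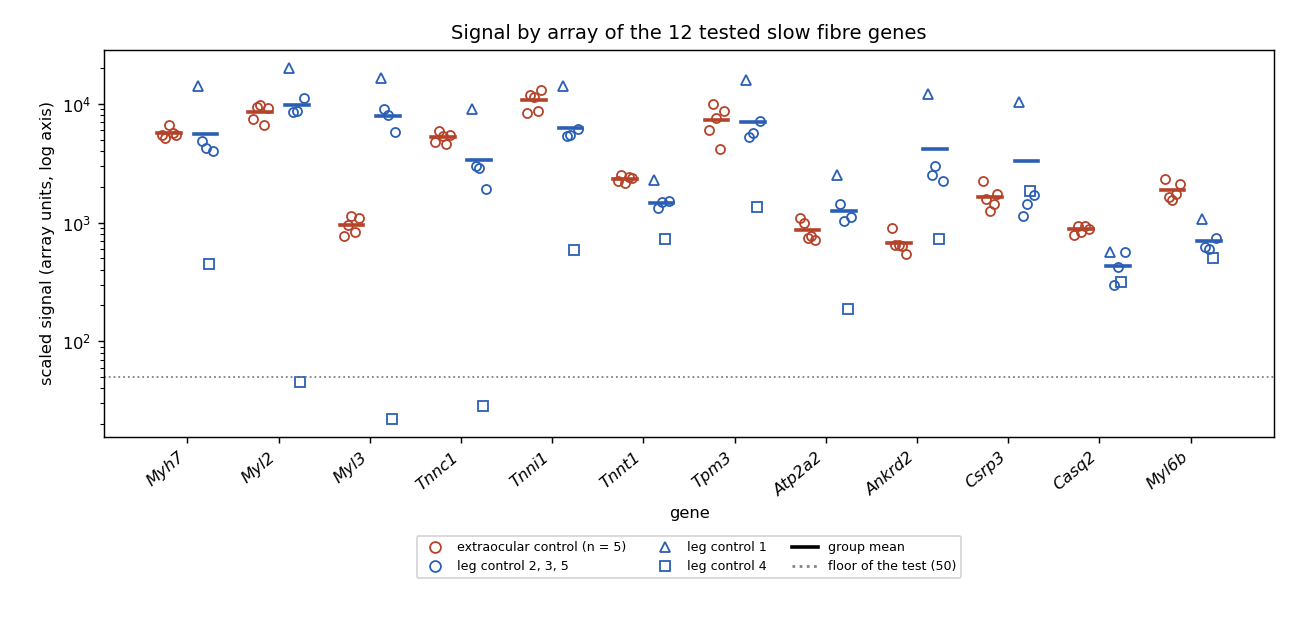
Scaled signal (log axis) of the 12 tested slow fibre genes on the control extraocular (red) and control leg (blue) arrays, with leg array 1 as triangles, leg array 4 as squares, bars at the group means and a dotted line at the floor of 50. Leg array 1 is the highest leg array for 11 of the 12 genes and leg array 4 lies far below the others for Myh7, Myl2, Myl3 and Tnnc1 (445, 45.2, 22.0 and 28.6).

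Among fast fibre genes, 1 of 11 tested (16 listed) was higher and 2 lower (9.09% and 18.2%, against 11.2% and 7.9% of all genes). Without leg arrays 1 and 4 the counts were the same. The lower genes were Pvalb, described above, and Myoz1, a Z-disc partner of calcineurin in fast fibres, at 5056 ± 1206 on extraocular and 11529.7 ± 2421 on leg arrays (2.29-fold, adjusted p = 0.000257). The fast light chain gene Mylpf was 2.21-fold higher (adjusted p = 0.0426; log2 -0.09 on a family-shared probe set), a call kept in 2 of 10 omissions (highest adjusted p 0.128, omitting leg array 2), so that the higher count fell to 0 in 8 omissions, without any 1 extraocular array or without leg array 2, 3 or 4. The fast myosin heavy chains Myh1 and Myh4 did not pass (log2 0.01 and 0.29). Actn3, the fast-fibre actinin, did not pass on its brightest probe set (log2 -0.63, adjusted p = 0.0535) and was lower on a dimmer one (log2 -1.55, adjusted p = 0.0407).

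Genes of embryonic, cardiac and non-muscle contractile proteins were higher at 4 of 17 tested (22 listed), 23.5% against 11.2% of all genes, and lower at 0. The counts were 4 and 1 without leg arrays 1 and 4, and 1 was lower without leg array 4 alone. Tnnt2, the cardiac troponin T also made by developing muscle, read 379, 305, 301, 367 and 351 on extraocular and 153, 168, 158, 129 and 192 on leg arrays. The groups did not overlap, and the difference was 2.14-fold (adjusted p = 5.28e-05). Acta2, the smooth muscle actin, was 2.26-fold higher, Tpm4 1.66-fold and the non-muscle myosin Myh14 1.58-fold. The embryonic and perinatal myosin heavy chains Myh3 and Myh8 did not pass (log2 -0.21 and 0.35). Mybph, a relative of myosin binding protein C, did not pass with all arrays (log2 -0.53, adjusted p = 0.324) and was lower without leg arrays 1 and 4 (log2 -1.06, adjusted p = 0.000432). Myh6, the atrial myosin heavy chain, was not tested because 2 of 20 arrays reached 200. Its signal was 177 to 215 on extraocular and 13.4 to 60.6 on leg arrays, with no overlap.

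The widest single gap of the comparison was at the M-band, the lattice that ties thick filaments together at mid-sarcomere. Myom2, which encodes its M-protein, read 96.4, 25.3, 16.8, 41.1 and 19.7 on extraocular and 2617, 2617, 2348, 1960.2 and 3486 on leg arrays. All but extraocular array 1 lay below the floor, so the signal was at least 44.9-fold lower in extraocular muscle (log2 -5.49, SE 0.27, adjusted p = 2.36e-12). Myom1, which encodes myomesin, did not pass (log2 -0.07). Of 21 tested Z-disc, M-band and cytoskeletal genes (36 listed), 3 were higher and 8 lower (38.1% against 7.9% of all genes). The lower count was 5 without leg arrays 1 and 4, without extraocular array 5 or without leg array 4 alone. Pdlim7, a PDZ and LIM protein of actin filaments, was 2.93-fold lower (1697 ± 350.0 against 4952 ± 819.5, adjusted p = 8.2e-07), and its other probe set did not pass (log2 0.39). The capping protein genes Capza2 and Capzb, which end the thin filament at the Z-disc, were 2.21-fold and 1.71-fold lower, although a dimmer Capzb probe set did not pass (log2 0.67).

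Csrp2, a LIM protein of smooth muscle, read 402, 542, 438, 510.3 and 567 on extraocular and 37.4, 45.1, 25.2, 37.9 and 38.2 on leg arrays. All leg arrays were under the floor, so the difference was at least 9.76-fold higher (adjusted p = 1.47e-08). Csrp1, a relative also of smooth muscle, was 2.78-fold higher on 1 of its 2 probe sets (adjusted p = 0.00700; log2 0.22 on the other), and Fhl2, a LIM protein abundant in heart, 1.85-fold (875 ± 98.1 against 501 ± 225). Leg array 4, at 899, was the only leg array in the extraocular range of Fhl2. In control arrays Csrp1 and Csrp2 were higher together with 6 of 10 tested smooth muscle markers (60% against 11.2% of all genes). In mdx arrays these 6 markers passed again in that direction. Csrp2 and Csrp1 did not pass there (log2 0.47 and 0.79, limma adjusted p = 0.264 and 0.152). The part of smooth muscle in the result was not tested.

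Glycogen metabolism held the largest share of lower genes. Of 16 tested genes (31 listed), 8 were lower and 2 higher (lower share of all genes 7.9%), with 6 and 1 without leg arrays 1 and 4 and 5 lower without extraocular array 5 or without leg array 2. Phosphorylase kinase, the switch that starts glycogen breakdown when calcium rises, was lower in its muscle-type subunits. Phka1, the muscle alpha subunit, read 1063, 696, 716, 664 and 779 on extraocular and 2208, 5178, 4637, 2217 and 3516 on leg arrays. Leg arrays 1 and 4 were the lowest of their group and still more than 2-fold above every extraocular array. The difference was 4.32-fold (log2 -2.11, SE 0.22, adjusted p = 5.45e-07) and -2.51 on the log2 scale without those arrays. Its promoter is shown because it is the most changed gene of the list, with E-boxes in capitals, again on the minus strand of GRCm38.p6.
Phka1, chrX:102644247-102644496: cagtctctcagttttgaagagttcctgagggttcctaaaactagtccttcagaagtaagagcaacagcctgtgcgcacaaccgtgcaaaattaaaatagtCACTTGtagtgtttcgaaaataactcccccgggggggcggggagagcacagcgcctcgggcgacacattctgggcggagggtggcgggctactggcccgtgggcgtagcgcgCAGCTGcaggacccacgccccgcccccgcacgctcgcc
It held 2 E-boxes, 150 and 38 bases before the start, which do not overlap. The muscle gamma subunit Phkg1 was 1.70-fold lower (1894 ± 135 against 3229.6 ± 448, adjusted p = 0.000535), while Phkg2, the gamma subunit best known from liver, was 1.76-fold higher (adjusted p = 0.0111, and 0.0536 without leg arrays 1 and 4). Phka2, the liver alpha subunit, did not pass (log2 0.01).

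Genes around glycogen itself followed the same split. Pgm1, which joins glycogen to glycolysis, was 2.30-fold lower (5575 ± 859 against 12851 ± 2150.2, adjusted p = 2.28e-05). Ppp1r3c, which brings protein phosphatase 1 to glycogen, was 2.33-fold lower, and Gyg, the glycogenin primer, 1.89-fold on its brightest probe set, with a family-shared probe set not passing (log2 -0.38). Pygm, the muscle phosphorylase, was 1.41-fold lower (adjusted p = 0.0426), kept in 3 of 10 omissions (highest adjusted p 0.120, omitting extraocular array 4) and lost without leg arrays 1 and 4 (0.150). Ppp1cc was 1.25-fold lower, kept in 2 of 10 omissions (highest adjusted p 0.121, omitting leg array 5), and Ppp1r1a 1.79-fold lower, kept in 5 (up to 0.0744, without extraocular array 2) and lost without leg arrays 1 and 4 (0.0526). Gbe1, the branching enzyme, was 1.76-fold higher (621 ± 115 against 351 ± 37.3, adjusted p = 0.000531). Gys1, the muscle glycogen synthase, did not pass (log2 0.31).

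In the list of glycolysis and glucose use 1 of 21 tested genes (34 listed) was higher and 3 lower (4.76% and 14.3%, against 11.2% and 7.9% of all genes). The lower genes, Gpd1, Gpd2 and Fbp2, belong to the glycerol phosphate shuttle and to the return of lactate carbon, not to glycolysis. The higher count was 4 without leg arrays 1 and 4, and 2 without extraocular array 4 or without leg array 1, 2 or 4 alone. Gpd1, the cytosolic enzyme of the glycerol phosphate shuttle, read 1888, 1424, 1381, 1801 and 1477 on extraocular and 4594, 5811, 7855, 4953 and 4990.2 on leg arrays. It was 3.50-fold lower with no overlap (adjusted p = 6.38e-09), and Gpd2, its mitochondrial partner, was 2.08-fold lower (adjusted p = 7.26e-05). Fbp2, the muscle fructose bisphosphatase that returns lactate carbon towards glycogen, read 415, 330.3, 283, 251 and 199.8 against 1062, 1242, 934, 1400.3 and 1053. The groups were apart and the difference was 3.93-fold (adjusted p = 1.26e-06). Ldhb, the heart-type lactate dehydrogenase subunit, was 2.39-fold higher (3294 ± 1168 against 1416 ± 614, adjusted p = 0.00215). Aldoa, Pgk1, Pgam2, Pkm and Eno3 did not pass, with log2 differences between -0.16 and 0.29.

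Fatty acid use leaned the other way, with 9 of 28 tested genes (38 listed) higher and 2 lower. That was 32.1% and 7.14%, against 11.2% and 7.9% of all genes (10 and 1 genes without leg arrays 1 and 4). The lower count was 1 without extraocular array 4, leg array 1 or leg array 2. Ech1, an isomerase of unsaturated fatty acid oxidation, read 10281, 11901, 10976, 10126 and 12941 on extraocular and 7589, 5663, 6009, 4959.8 and 5980.4 on leg arrays. All extraocular arrays were higher, by 1.87-fold (adjusted p = 1.1e-05). Echs1, the next hydratase, was 1.87-fold higher, the fatty acid transporter Cd36 1.73-fold, and the carnitine carrier Slc25a20 1.62-fold. Cpt1a, the liver-type carnitine palmitoyltransferase, was 3.53-fold higher (486 ± 168 against 151 ± 94.9, adjusted p = 0.000180). Oxct1, which activates ketone bodies, was 1.36-fold higher (adjusted p = 0.0129). Ucp3, a mitochondrial carrier induced by fatty acids, was 2.01-fold lower (605 ± 95.2 against 1284 ± 565, adjusted p = 0.00625).

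The respiratory chain and citric acid cycle were near or under the background. Of 76 tested genes (98 listed) 2 were higher and 2 lower, 2.63% in each direction, with a median log2 difference of -0.08; without leg arrays 1 and 4 the counts were 3 and 2. The higher count was 1 without extraocular array 3 or leg array 5, and the lower count 1 without extraocular array 1 or leg array 2, 3 or 5. Cox6a1, the non-muscle form of a cytochrome oxidase subunit, was 1.96-fold higher on a family-shared probe set (4640.2 ± 681 against 2363 ± 307, adjusted p = 4.54e-05). Ogdh, of the citric acid cycle, was 1.33-fold higher (adjusted p = 0.0207, up to 0.0535 without leg array 5, with the call lost in 2 of 10 omissions). Ndufs4, of complex I, was 1.64-fold lower (adjusted p = 0.0233), a call lost in 4 of 10 omissions (up to 0.0579, without leg array 2).

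Antioxidant genes were higher at 6 of 31 tested (36 listed, 19.4%) and lower at 1 (3.23%), against 11.2% and 7.9% of all genes. Without leg arrays 1 and 4 the counts were 6 and 0. Sod3, the extracellular superoxide dismutase, was 2.29-fold higher (2691 ± 202 against 1207 ± 322, adjusted p = 4.04e-05), the metallothionein Mt1 2.11-fold and the glutathione transferase Gsta4 at least 3.34-fold. Hmox1, which degrades haem, was the lower gene (1.95-fold, adjusted p = 0.0353). That call was kept in 4 of 10 omissions (highest adjusted p 0.116, omitting extraocular array 4), and the lower count of the list was 0 without extraocular array 4 or leg array 1, 2, 3 or 5. In the phosphagen and purine list 2 of 12 tested genes (18 listed) were higher and 1 lower (16.7% and 8.33%), with the same counts without leg arrays 1 and 4. Gatm, which makes the creatine precursor, was 3.56-fold higher (908 ± 34.6 against 273 ± 102, adjusted p = 3.29e-06), and Adssl1, the muscle enzyme of the purine nucleotide cycle, 1.75-fold lower (6382 ± 412 against 11186 ± 703, adjusted p = 4.03e-06).

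The lists of body position held a few calls with wide gaps. Of 24 tested genes of trunk and limb position (54 listed), 3 were lower and 2 higher in extraocular muscle, and 19 did not pass. The shares of 12.5% and 8.33% were near those of all genes (7.9% and 11.2%). Without leg arrays 1 and 4 the counts were 4 and 2. Hoxc9, a Hox gene of the posterior trunk and hindlimb, read 82.5, 63.6, 61.9, 64.9 and 71.0 on extraocular and 354, 355, 387, 88.8 and 361 on leg arrays. Leg array 4 lay just above the extraocular range, and the other 4 leg arrays were together above 350 (log2 -2.01, adjusted p = 0.000182; -2.43 without leg arrays 1 and 4). Hoxd8 read 206, 205, 166, 212 and 166 against 737, 1416, 1144, 94.9 and 1056. Leg array 4 was below all extraocular arrays, and the log2 difference was -1.79 with it (adjusted p = 0.0176, up to 0.0574 without leg array 2, with the call lost in 2 of 10 omissions) and -2.66 without leg arrays 1 and 4. En1, a limb patterning gene, was 4.00-fold lower (120.0 ± 72.8 against 459.9 ± 207, adjusted p = 0.000557). The probe sets of Hoxc9, of Myh7, Atp1b1, S100a1, Pvalb, Gpd2 and Cox6a1 above, and of Psma3 below are among those that can read several members of a gene family.

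Tbx15, a T-box gene that marks glycolytic fibres in limb muscle, read 3510.1, 3351, 4644, 4623 and 2726 on extraocular and 876, 936, 758, 2629 and 1135 on leg arrays on its brightest probe set. Leg array 4 came closest to the extraocular range; the difference was 3.26-fold higher (adjusted p = 0.000133), and of its other 2 probe sets 1 passed in the same direction (log2 0.87) and 1 did not (log2 0.85). Pitx1, a hindlimb gene, was 1.73-fold higher in extraocular muscle (827 ± 238 against 472 ± 99.7, adjusted p = 0.00710), against its place in a list of limb genes. In the head and eye list, 3 of 15 tested genes (57 listed) were higher and 1 lower (20% and 6.67%, against 11.2% and 7.9% of all genes). They numbered 2 and 1 without leg arrays 1 and 4, with 1 higher without extraocular array 3. Eya2, a coactivator of homeobox factors, was 3.33-fold higher (614 ± 187 against 206 ± 124, adjusted p = 0.00553), and Six2 itself 2.98-fold lower (450.4 ± 146 against 1302 ± 313, adjusted p = 0.00130). The mesenchymal head factors Twist1 and Prrx2 were 2.46-fold and 2.05-fold higher (adjusted p = 0.0174 and 0.0492), and neither call held without leg arrays 1 and 4 (0.166 and 0.107). Prrx2 kept its call in 2 of 10 omissions (highest adjusted p 0.135, omitting extraocular array 2), and Twist1 in 9 (up to 0.0505, without extraocular array 3).

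Of 41 tested growth regulators (62 listed) 10 were higher and 2 lower (24.4% and 4.88%, against 11.2% and 7.9% of all genes). Without leg arrays 1 and 4 they numbered 5 and 1. The higher count was 6 without extraocular array 5, leg array 1 or leg array 3, and the lower count was 0 without leg array 2 and 1 without any 1 extraocular array, leg array 3 or leg array 4. Peg3, an imprinted gene expressed from the paternal allele, read 1962, 2427, 2735, 2069.7 and 2262 on extraocular and 663, 441, 464, 413 and 401 on leg arrays on its brightest probe set. It was 4.86-fold higher without overlap (adjusted p = 2.32e-10), and another probe set gave 5.84-fold. Fst, the secreted protein follistatin that binds myostatin and activin, read 442, 411, 619, 281 and 155 against 128, 81.5, 121, 24.9 and 33.2. Leg arrays 4 and 5 were below the floor, and the difference was at least 4.34-fold (adjusted p = 0.000112). Mstn, which encodes myostatin, was 1.66-fold lower (903 ± 232 against 1505 ± 391, adjusted p = 0.0192), a call lost in 2 of 10 omissions (up to 0.0617, without leg array 2). Inha, the inhibin alpha subunit of the same signalling family, was 8.02-fold higher (adjusted p = 2.17e-05). Id2, an inhibitor of the MyoD family, was 3.57-fold higher (581 ± 116 against 175 ± 74.2, adjusted p = 2.28e-05), and the insulin-like growth factor binding protein Igfbp6 2.18-fold.

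Genes of the dystrophin complex and its laminin partners were split. Of 27 tested (40 listed) 7 were higher and 4 lower (25.9% and 14.8%, against 11.2% and 7.9% of all genes). Without leg arrays 1 and 4 the counts were the same. Dmd, the dystrophin gene, is named outside the naming rule, after its values were seen; it read 325, 204, 246, 264 and 302 on extraocular and 212, 138, 145, 149 and 100.2 on leg arrays. Leg array 1 reached the lower end of the extraocular range, and the difference was 1.83-fold (adjusted p = 0.0435), kept in 2 of 10 omissions (highest adjusted p 0.113, omitting leg array 5). Sgce, the epsilon-sarcoglycan made in many tissues, was 2.15-fold higher (1055 ± 112 against 495 ± 86.0, adjusted p = 3.36e-05), whereas Sgca, the muscle-specific alpha-sarcoglycan, was 1.59-fold lower (2481 ± 260.0 against 3943 ± 334, adjusted p = 0.000911). Sspn, which encodes sarcospan, was 1.80-fold higher (adjusted p = 1.99e-05). Cav3, the caveolin of fibres, was 2.26-fold lower (1108 ± 296 against 2505 ± 894, adjusted p = 0.000250), and Capn3, the muscle calpain mutated in a limb-girdle dystrophy, 1.95-fold lower, with its 3 probe sets all passing in that direction (log2 -0.96, -1.02 and -1.14). The laminin receptor Itga7 and the laminin chain Lama4 were each 1.57-fold higher (adjusted p = 0.00858 and 0.00743) and passed in all 10 omissions, but not without leg arrays 1 and 4 (0.0734 and 0.0533).

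The extracellular matrix had the most higher genes of any functional list. Of 48 tested genes (73 listed) 25 were higher and 2 lower (52.1% and 4.17%), with a median log2 difference of 0.67; without leg arrays 1 and 4 the counts were 20 and 3 and the median 0.52. The lower count was 1 without extraocular array 3, 4 or 5 or leg array 2, 3, 4 or 5. Eln, the elastin of elastic fibres, read 3512, 6668, 6617, 6959 and 7055 on extraocular and 1339, 2129, 2328, 1905 and 2040.0 on leg arrays. Extraocular array 1 was the lowest of its group and above every leg array, and the difference was 3.12-fold (adjusted p = 8.47e-07). Postn, a matricellular protein of growing and repairing tissue, read 1105, 1618, 1594, 1659 and 1613 against 228, 534, 474, 216 and 358. The groups did not overlap, with a difference of 4.43-fold (adjusted p = 3.36e-07).

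Fbln1, an elastic fibre protein, was higher on all 3 of its tested probe sets (log2 2.49, 1.35 and 1.43). Lum, a small leucine-rich proteoglycan of collagen fibrils, was 3.33-fold higher, while Fmod, a related proteoglycan abundant in tendon, was 2.32-fold lower (913 ± 238 against 2195 ± 861, adjusted p = 0.00592). The matrix protease Mmp3 was at least 4.21-fold higher, with leg arrays at or below 77.8. Pdgfra, a receptor that marks interstitial fibroblasts, was 2.60-fold higher (3037 ± 511 against 1191 ± 297, adjusted p = 2.26e-05). Collagens Col3a1, Col5a2 and Col14a1 passed as higher (log2 1.18, 1.00 and 0.87). The part of a different share of connective tissue in these results was not tested.

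Protein breakdown genes were lower at 8 and higher at 4 of 38 tested (46 listed), 21.1% and 10.5% against 7.9% and 11.2% of all genes. Without leg arrays 1 and 4 they numbered 8 and 5. Ube2g1, a ubiquitin-conjugating enzyme abundant in muscle, read 1678, 1722, 1636, 1615 and 1497 on extraocular and 5208, 4742, 4529.5, 3615 and 4884 on leg arrays. It was 2.80-fold lower with no overlap (adjusted p = 1.1e-08), and Ube2b, another conjugating enzyme, 1.59-fold lower. The calpain Capn1 and the proteasome subunit Psma3 were 1.58-fold and 1.62-fold lower. Lgmn, a lysosomal protease, was 2.74-fold higher (1105 ± 142 against 404 ± 56.3, adjusted p = 5.59e-08). Of the cytosolic ribosome list 0 of 29 tested genes (81 listed) were higher and 1 lower, Rpl37a (1.76-fold, adjusted p = 0.0227), which did not pass without leg arrays 1 and 4 (0.0775), without extraocular array 1 or without extraocular array 4 (up to 0.0718).

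Among immediate early and heat shock genes 9 of 37 tested (52 listed) were higher and 3 lower. That was 24.3% and 8.11%, against 11.2% and 7.9% of all genes (8 and 3 genes without leg arrays 1 and 4). The chaperones Hsp90aa1 and Dnaja1 were 2.63-fold and 1.72-fold higher, and the transcription factor Klf4 2.39-fold. Nr4a1, an orphan nuclear receptor of the immediate early kind, was 2.18-fold lower (1098 ± 122 against 2416 ± 465, adjusted p = 5.19e-05), and Cebpb 1.75-fold lower. Clock genes were higher at 0 of 13 tested (20 listed). Their lower count was 4 without leg arrays 1 and 4 and 5 without extraocular array 1. With all arrays 3 were lower, 23.1% against 7.9% of all genes. They were Bhlhe40 (1.98-fold, adjusted p = 0.00178), the repressor Nr1d1 (1.59-fold, adjusted p = 0.00297) and Rora (1.97-fold, adjusted p = 0.0263, lost in 3 of 10 omissions and up to 0.0870 without extraocular array 2). The hour of dissection is not given in the labels.

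Of 17 tested genes for nuclear receptors and metabolic control (39 listed) 6 were higher and 3 lower (35.3% and 17.6%, against 11.2% and 7.9% of all genes). The higher count was 3 without leg arrays 1 and 4, without extraocular array 3 or without extraocular array 4. Ppargc1a, a coactivator that raises mitochondrial genes, read 567, 548, 408, 464 and 204 on extraocular and 134, 168, 233, 236 and 229.8 on leg arrays. Extraocular array 5 fell within the leg range, and the difference of 2.11-fold passed with all arrays (adjusted p = 0.0152) but not without leg arrays 1 and 4 (0.0602). Rxrg, a retinoid receptor enriched in muscle, was 3.38-fold lower (155 ± 90.9 against 471 ± 141, adjusted p = 0.00702). Dio2, which activates thyroid hormone, was 1.93-fold higher and Akt1, a kinase of insulin signalling, 1.66-fold.

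In the complement and interferon list 5 of 23 tested genes (41 listed) were higher, 21.7% against 11.2% of all genes, and 1 lower (4 and 1 without leg arrays 1 and 4). The higher count was 2 without extraocular array 1, extraocular array 2 or leg array 5, and 3 without extraocular array 3 or leg array 4, and the lower count was 2 without extraocular array 1. Serping1, the inhibitor of the first complement enzyme, was 2.11-fold higher (3719.7 ± 148 against 1809 ± 478, adjusted p = 0.000266). Cd55, which protects cells from complement, read 118, 105, 107, 88.4 and 134 on extraocular and 261, 571, 363, 509 and 435 on leg arrays. It was 3.78-fold lower without overlap (adjusted p = 2.02e-06). Of 16 tested antigen presentation genes (24 listed) 1 was higher, Tapbp (1.55-fold, adjusted p = 0.0141; log2 0.39 on its other probe set, which did not pass), and 0 lower; 3 were higher without leg arrays 1 and 4, 2 higher without leg array 1 and 1 lower without leg array 4.

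Further genes with wide gaps stood in none of the functional lists. Frzb, a secreted antagonist of Wnt proteins, read 531, 589, 584, 684 and 571 on extraocular and 32.1, 55.7, 105, 51.2 and 36.2 on leg arrays. It was at least 9.91-fold higher (adjusted p = 1.66e-09), with leg array 3 the highest of the leg arrays. Th, the rate-limiting enzyme of catecholamine synthesis, was at least 5.82-fold higher (393 ± 117 against 61.1 ± 29.0, adjusted p = 2.75e-05). Cyp1b1, a cytochrome P450, was at least 7.98-fold higher. Cyfip2, a partner of the actin regulator WAVE, was 7.04-fold higher. Arhgap9, a GTPase-activating protein, has 2 tested probe sets, which both passed as higher but disagreed in size. The dimmer, with every leg array under the floor, gave a fold of no less than 5.66. The brighter differed by a log2 of 0.69 (limma adjusted p = 0.0214). Slc37a4, the glucose 6-phosphate carrier of the endoplasmic reticulum, read 479.7, 533, 652, 596 and 669.8 against 2306, 3382, 3387, 1742 and 3631. It was 4.79-fold lower with leg array 4 the lowest of its group (adjusted p = 1.78e-05). The amino acid transporter Slc38a4 was 4.85-fold lower (432 ± 105 against 2112 ± 607, adjusted p = 4.55e-08). Styx, Dnajb5, Tspan8, Abcf2 and Cpxm2 were lower by 5.48, 5.47, 5.13, 5.11 and 3.82-fold, and Tfcp2l1 by at least 4.77-fold on 1 of its 2 probe sets, while the other did not differ detectably (log2 -0.04).

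Markers of other cell types were read on the same arrays. Summed signals of 16 marker lists were compared by exact permutation over the 252 splits of 5 against 5 arrays (two-sided, smallest possible p 0.00794, adjusted over the 16 lists). The myelin and Schwann cell list (8 of 17 markers tested) summed to 9011 to 10749.5 on extraocular and 2719 to 4287 on leg arrays (log2 difference 1.35, adjusted p = 0.0317). Of its 8 genes 5 were higher (62.5% against 11.2% of all genes) and 0 lower (4 and 0 without leg arrays 1 and 4). Pmp22, a myelin protein of peripheral nerve also made by fibroblasts, read 4657, 4383, 4699.7, 4359 and 5154 on extraocular and 543, 1188, 1149.6, 1380.5 and 862 on leg arrays. The difference was 4.76-fold with no overlap (adjusted p = 6.88e-08), and Mbp, a core myelin protein, was 3.08-fold higher on its brightest probe set (1942 ± 603 against 651 ± 243, adjusted p = 2.53e-05) and not on the other (log2 0.12). Sox10, a Schwann cell factor, was 1.33-fold higher, kept in 3 of 10 omissions (highest adjusted p 0.0952, omitting extraocular array 1) and lost without leg arrays 1 and 4 (0.199). These levels moved with the synaptic genes Erbb3 and Gdnf above; their part in those results was not tested.

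The endothelial list (15 of 20 tested) summed to 9459 to 10915 on extraocular and 6002 to 8961 on leg arrays, and the macrophage list (21 of 31 tested) to 9788 to 13421 and 6591 to 8983 (log2 differences 0.45 and 0.46, adjusted p = 0.0317 for both). Of the endothelial genes 4 were higher (26.7%) and 0 lower (2 higher without leg arrays 1 and 4 and 2 without extraocular array 3), among them Emcn (1.67-fold, adjusted p = 0.00189; log2 0.51 and not passing on its other probe set). Pecam1, Cdh5 and Kdr did not pass. Of the macrophage genes 3 were higher (14.3%, near the 11.2% of all genes) and 0 lower: Lyz2 (2.95-fold), Laptm5 (1.92-fold on the brighter of 2 probe sets, log2 0.14 on the other) and Ctss (1.60-fold, not passing without leg arrays 1 and 4, adjusted p = 0.0755, or without extraocular array 1, 0.0508). Cd68, Adgre1 and Mpeg1 did not pass. The lymphocyte list (8 of 20 tested) was lower, at 2860.2 to 3196 against 3775 to 5208 (log2 difference -0.52, adjusted p = 0.0317). Its call was Ighm, the heavy chain of IgM, at 2.61-fold lower and on all 3 of its probe sets. The mean of the sum was 3029.5 in extraocular and 4379 in leg muscle, and Ighm alone read 629.7 ± 85.7 against 1646 ± 248, while the other 7 genes did not pass.

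Smooth muscle genes were higher at 6 of 10 tested (15 listed), 60% against 11.2% of all genes. Myh11, the smooth muscle myosin, read 945, 1008, 1741, 1089.5 and 1751 on extraocular and 65.0, 346, 389.8, 310.3 and 211 on leg arrays. The 2 groups did not overlap (5.60-fold, adjusted p = 2.17e-05). Tagln and Mylk were 2.12-fold and 1.76-fold higher, and Cnn1 was at least 3.49-fold higher. Myl9 was 1.41-fold higher, kept in 2 of 10 omissions (highest adjusted p 0.118, omitting extraocular array 3) and lost without leg arrays 1 and 4, where the list held 5 higher and 1 lower gene. The summed list did not pass (22663 to 29161.5 against 20656 to 23512, exact permutation p = 0.0317, adjusted 0.0726). Adipocyte genes summed to 16019 to 20804 against 13251 to 17379 (exact permutation p = 0.0159, adjusted 0.0508). Of 15 tested (22 listed) 2 were higher and 1 lower (13.3% and 6.67%, near the 11.2% and 7.9% of all genes). The other 12 did not pass, among them Adipoq, Fabp4, Lep, Retn and Lipe. Of the genes that passed, Cidea, a lipid droplet gene of brown fat, was 3.36-fold higher (715 ± 71.8 against 215 ± 40.4, adjusted p = 2.89e-07) and Fasn 2.49-fold, and Agt was lower (log2 -1.23, adjusted p = 0.0361).

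Neighbouring eye and gland tissue was read in the same way. Of 10 tested gland genes (31 listed) 2 were higher, Bpifa2 and Klk1b16, and 1 lower, Egf (1.54-fold). That was 20% and 10%, against 11.2% and 7.9% of all genes. Bpifa2 was 8.35-fold higher with leg array 4 included (adjusted p = 0.00524) and 3.85 on the log2 scale without leg arrays 1 and 4. The sum of the list was 8170.4 to 9864 on extraocular and 4646 to 14435 on leg arrays (exact permutation p = 0.222, adjusted 0.356). Of 7 tested photoreceptor genes (23 listed) 1 was higher (14.3%, near the 11.2% of all genes). It was Abca4, a retinoid transporter of photoreceptor discs, at 464, 487, 571, 558 and 232 against 57.3, 66.7, 58.8, 50.8 and 88.1. No arrays overlapped (6.98-fold, adjusted p = 7.31e-08), and the sum of the list did not pass (adjusted exact permutation p = 0.0726). Sag, Gnat1 and Pde6b, markers of rods, were not among the tested genes. Of 5 tested pigment cell and 5 tested lens and cornea genes 0 passed, of 13 keratin and epithelial genes 1 was higher, of 6 neuronal genes 0 passed, of 6 mast cell and neutrophil genes 1 was higher, of 4 erythroid genes 0 passed, and of 9 tendon and cartilage genes 1 was higher and 1 lower. None of these 7 sums passed (adjusted exact permutation p = 0.487, 0.654, 0.798, 0.952, 0.485, 0.296 and 0.0952). Without leg arrays 1 and 4 (56 splits, smallest possible p 0.0179) the smallest adjusted p of the 16 sums was 0.0571, and fewer than 6 sums at the smallest possible p could not have passed.

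**Figure D4:**
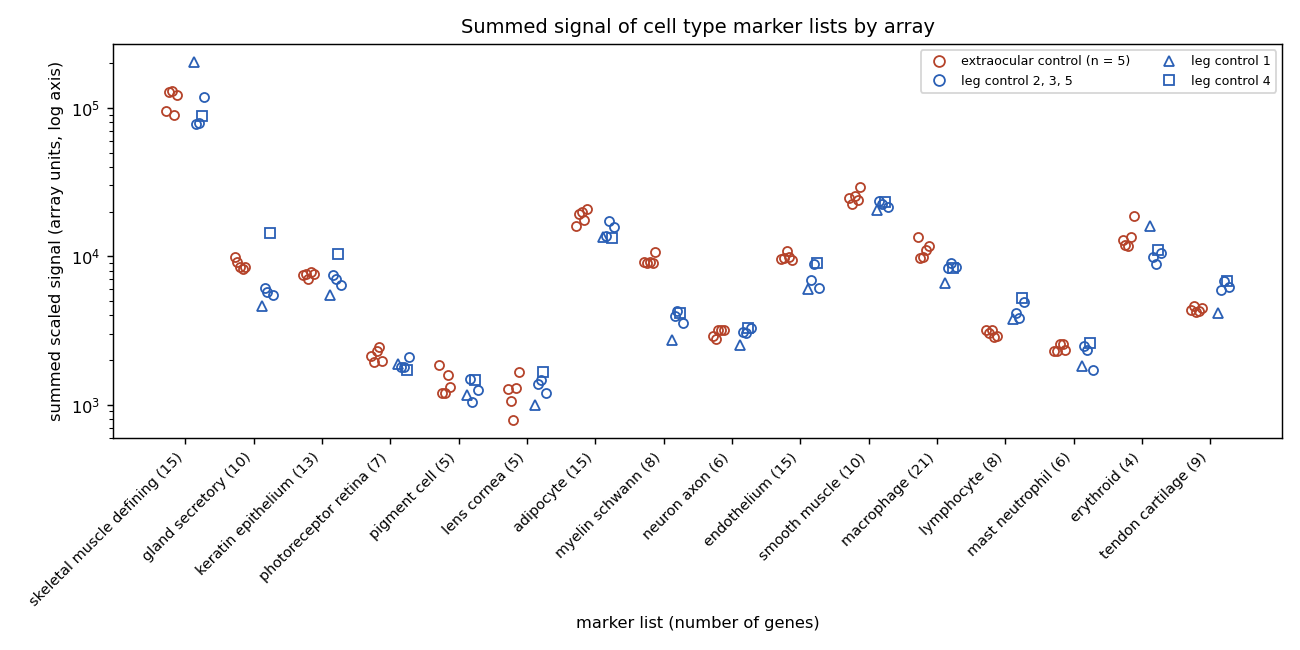
Summed scaled signal (log axis) of the tested genes of 16 cell type marker lists on each control extraocular (red) and control leg (blue) array, with leg array 1 as triangles, leg array 4 as squares and the number of genes in brackets. The groups do not overlap for the myelin and Schwann cell, endothelial and macrophage lists, which are higher in extraocular muscle, and for the lymphocyte list, which is lower; leg array 4 holds the highest gland sum, 14435.

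The mdx arrays gave a second reading of the muscle difference in other samples, although the spread in the fit was shared with the control contrast. Of the 1275 probe sets that passed in controls, 1027 (80.5%) had the same sign between mdx extraocular and mdx leg muscle, against 61.9% of all tested probe sets. In mdx arrays 1302 probe sets (18.1%) passed. The 3' to 5' log2 ratio of Actb ran from -3.61 to -0.22 on the mdx leg arrays and from -0.38 to 0.53 on the mdx extraocular arrays. That of Gapdh ran from -2.70 to -2.38 and from -2.10 to -0.54. The part of these differences in the mdx values was not tested. Of the mdx calls, 490 had also passed in controls with the same sign, which is 38.4% of the control calls and 37.6% of the mdx calls, and 52 had passed with the opposite sign. The difference between the genotypes was tested directly, and 210 of the 1275 had a muscle difference that was not the same in mdx (448 of all tested, 6.22%). The 1275 were picked by their control difference, which also enters this test. Their count can therefore not be weighed against that of all tested probe sets.

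Several of the wide gaps passed in both genotypes. Slc4a3 differed by a log2 of 3.12 in control and 3.19 in mdx arrays, S100a1 by 1.93 and 2.20, Cacng1 by -3.66 and -3.11, and Pdlim7 by -1.55 and -1.50. Ache (1.80 and 1.59), Pmp22 (2.25 and 1.87) and Phka1 (-2.11 and -1.78) also passed in both, and none of these 7 passed the test of a difference between genotypes. Other genes differed between the genotypes. Chrna1 was 2.59 in control and 0.73 in mdx arrays, Csrp2 3.29 and 0.47, and Peg3 2.28 and 0.50. For Postn the sign turned, from 2.15 in control to -2.49 in mdx arrays, as it did for Lyz2 (1.56 and -2.13), Ctss (0.68 and -2.68), Lgmn (1.45 and -0.60), Tnnt2 (1.10 and -0.84) and Gatm (1.83 and -0.75). Each of these had an adjusted p under 0.05 for the difference between genotypes, and their values are given with the other such genes in the closing section.

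**Figure D5:**
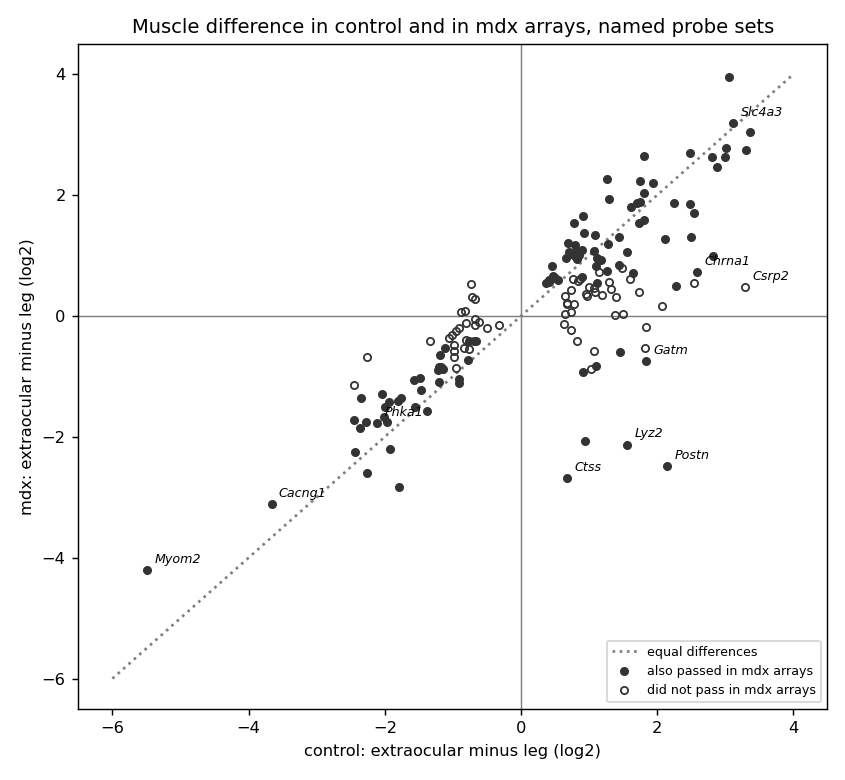
Log2 difference of extraocular minus leg signal in mdx arrays (vertical) against that in control arrays (horizontal) for the 166 named probe sets that passed in controls; filled points also passed in mdx arrays and the dotted line marks equal differences. Of these, 146 have the same sign in both and 98 also passed in that direction, while 8 passed with the opposite sign (Postn, Lyz2, Ctss, Laptm5, Lgmn, Tnnt2, Gatm and Fxyd5).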

How the data were processed

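The 20 arrays were one-colour Affymetrix arrays of total RNA. For 12654 probe sets the authors deposited intensity values on a linear scale, set so that the 2% trimmed mean was the same on every array, as the values show; the summarisation software, its version and the scaling target are not given in the sources used here. Deposited values ran from 0.4 to 95476.8. No depth exists for arrays, and their number limits the precision.

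The 66 Affymetrix control probe sets were set aside. Each array was scaled so that the 2% trimmed mean of the remaining 12588 was 500, a floor of 50 was set and log2 was taken. Probe sets were kept where 5 or more of the 20 arrays reached 200, which left 7204. They were fitted in limma 3.58.1 under R 4.3.3 by lmFit, and eBayes was run with a trend in intensity. The 20 arrays formed 4 groups (residual degrees of freedom 16), and p-values were adjusted by the Benjamini-Hochberg method within each contrast at 5%. The script was tested on simulated data. Tables were handled with Python 3.11.15, pandas 2.3.3 and numpy 2.4.6.

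Gene symbols came from the platform annotation: 10276 probe sets had 1 symbol, 363 several and 1949 none, and 10257 of the first kind matched RefSeq (GRCm38.p6), whose promoter table gave the sequences. Genes were drawn for naming by a rule. It took the 15 largest increases and 15 largest decreases among probe sets that passed without overlap of the groups. It also took up to 8 passing members of each list by adjusted p, tested contractile, position and glycogen genes, and defining markers of other cell types. Not all of these are given here, and of the position genes only those that passed. Chrng, Dmd, genes given as not passing, and the genes that mark leg array 4 were chosen after their values were seen. The members and gene lists were chosen with earlier results of these data known. The early array design holds some probe sets that the maker later withdrew, and these were not removed here. Alternatives covered scaling, floor, filter, the model of the spread, the samples, the block and the choice of probe set.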

Additional observations from a re-analysis of the deposited data

Results flagged for a closer look

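A sample was set apart from its group when its gap to the nearest other array exceeded 0.71 of the group's range, Dixon's limit for 5 samples. Gap and range were taken on log2 signals after the floor, while the signals printed here are before it. Of 376 groups of values from the 188 named probe sets, 36 met this. Chance gives about 1 in 20 groups, a rate that need not hold where arrays were set to the floor. Leg array 4 accounted for 10 and leg array 1 for 9. For Kcna1, Myom2 and Frzb the flag rests on other arrays of the group being set to the floor. Without the floor their gaps did not reach the limit. Leg array 4 stood apart with the lowest signal of its group for Peg3 (65.3), Hoxc9 (88.8), Myl2 (45.2), Myl3 (22.0), Mybph (344) and Hoxd8 (94.9) and the highest signal of its group for Kcna1 (55.9), Fhl2 (899), Gsta4 (177) and Cav3 (4101). Leg array 1 stood apart with the lowest signal of its group for Ndufs4 (376), Ppp3cb (448), Lum (454) and Pdgfra (676) and the highest signal of its group for Csrp3 (10386), Echs1 (1670.0), Mt1 (2013), Rcan1 (3059.8) and Peg3 (663). Extraocular array 1 stood apart with the lowest signal of its group for Igfbp6 (2531), Postn (1105) and Eln (3512) and the highest signal of its group for Myom2 (96.4), Mt1 (3309.9) and Bhlhe40 (865). Extraocular array 5 stood apart with the lowest signal of its group for Abca4 (232) and Myh8 (421) and the highest signal of its group for Chrna1 (2171), Eci2 (2419.7) and Asph (284). Extraocular array 4 stood apart with the lowest signal of its group for Tspan8 (56.7) and Cav3 (594). Extraocular array 2 stood apart with the lowest signal of its group for Rora (123). Leg array 2 stood apart with the lowest signal of its group for Flt4 (68.9). Leg array 3 stood apart with the highest signal of its group for Frzb (105). Leg array 5 stood apart with the lowest signal of its group for Cpxm2 (109.6). Peg3 appears for both leg array 4 and leg array 1, on different probe sets.

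The muscle difference itself differed between mdx and control mice for 35 of the 188 named probe sets, by limma's test of the difference with an adjusted p under 0.05. Of all 7204 tested probe sets 448 (6.22%) did so. Many named probe sets were picked by their control difference, which enters this test, so the counts are not comparable. Values are the log2 difference of extraocular minus leg in mdx arrays minus that in control arrays. They were negative for Postn (-4.63), Lyz2 (-3.69), Ctss (-3.37), Laptm5 (-3.02), Csrp2 (-2.81), Gatm (-2.59), Cpt1a (-2.35), Lgmn (-2.05), Id2 (-2.02), Peg3 (-1.995), Tnnt2 (-1.93), Prrx2 (-1.92), Mmp3 (-1.91), Chrna1 (-1.86), Fxyd5 (-1.84), Cyfip2 (-1.82), Peg3 (-1.78), Mt1 (-1.67), Asph (-1.47), Pdgfra (-1.36), Lum (-1.34), Phkg2 (-1.23), Tpm4 (-0.97), Eln (-0.92), Sod3 (-0.85) and Akt1 (-0.66), with Peg3 on both of its probe sets. They were positive for Tfcp2l1 (1.58), Myom2 (1.28), Mstn (1.26), Ndufs4 (1.03), Nr1d1 (0.95), Rcan1 (0.91), Ech1 (0.74), Adssl1 (0.69) and Ube2b (0.62). Among these, the matrix and macrophage genes Postn, Lyz2, Ctss and Laptm5 moved farthest. The arrays of 1 genotype share no sample with those of the other.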

How the results depend on the processing

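The number of probe sets that passed was 1275 in the reported fit and 1036 to 1232 when 1 array was left out, 1080 with the 10 compared arrays alone, 1141 with no filter, 1048 with a filter at 500, 1253 after quantile normalization (686 higher and 567 lower), 1268 on values as deposited, 1284 with a pseudocount and 1510 with array weights. Same-numbered arrays shared only a number (correlations of their deviations -0.01 to 0.05, with 1 of 5 extraocular arrays closest to its own number), and a replicate block gave 915. Differences of at least 2-fold fell from 445 to 283 with the filter at 500, where 4234 probe sets were tested. Of 922 counts and sums under the alternatives other than leaving 1 array out, 841 stayed on their side or within 1.5 times. The cause of the other changes, given next, was not tested.

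With array weights the counts became 1 lower for smooth muscle, 2 higher for fast fibre, 3 higher for glycolysis, 2 lower for phosphagen, 0 lower for antioxidant, 5 lower for immediate early, 3 higher for antigen presentation and 2 lower for complement. With the filter at 500 they became 1 higher for glycogen, 1 higher and 2 lower for phosphagen, 3 higher for ion transport, 1 higher for head and eye, 1 lower for growth and 1 lower for nuclear receptors. Head and eye also had 1 higher with a filter on the control arrays, a floor of 100 or the compared groups alone. Phosphagen had 2 lower with that floor, the pseudocount, quantile normalization or the compared groups alone. With no filter the counts were 0 higher for fast fibre, 5 lower for the Z-disc, 0 lower for antioxidant, 2 lower for ion transport, 6 higher for growth, 2 higher for complement and 0 lower for the ribosome. Without the intensity trend they were 0 higher for fast fibre, 1 lower for matrix and 3 higher for complement, and with the compared groups alone the same, with 1 lower for fatty acids and 0 lower for antioxidant. Quantile normalization gave 0 higher for fast fibre, 2 higher for glycolysis and 3 higher for complement, and the mean over probe sets 0 higher for fast fibre and 5 lower for immediate early.

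The replicate block gave 3 higher for myelin, 0 higher for fast fibre, 1 higher and 5 lower for glycogen, 1 higher and 3 lower for phosphagen, 1 higher for the respiratory chain, 1 lower for fatty acids, 3 higher for ion transport, 1 higher for trunk and limb, 6 higher and 1 lower for growth, and 1 lower for matrix. Without leg arrays 1 and 4 the counts were 2 higher for endothelium, 1 lower for smooth muscle, 5 higher and 2 lower for slow fibre, 1 lower for embryonic, 5 lower for the Z-disc, 1 higher for glycogen, 4 higher for glycolysis, 1 lower for fatty acids, 0 lower for antioxidant, 1 lower for the junction, 5 higher and 1 lower for growth, 3 higher for nuclear receptors, 3 higher for antigen presentation and 0 lower for the ribosome.

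When 1 array was left out, counts of higher genes ran from 0 to 1 for fast fibre, 2 to 5 for complement and for endothelium, 1 to 2 for the respiratory chain, for glycolysis and for antigen presentation, 1 to 4 for head and eye, 3 to 5 for nuclear receptors and for slow fibre, and 6 to 9 for growth. Counts of lower genes ran from 1 to 3 for the respiratory chain, matrix and slow fibre, 0 to 3 for growth, 2 to 5 for clock and ion transport, 1 to 2 for complement and fatty acids, 0 to 1 for the ribosome, antioxidant, embryonic and antigen lists, 5 to 8 for the Z-disc and 5 to 7 for glycogen.

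Marker sums changed side in 7 cases. Without leg arrays 1 and 4 the log2 differences were 1.26 for myelin, 0.46 for endothelium, 0.37 for macrophages and -0.50 for lymphocytes, with adjusted exact permutation p = 0.0571, 0.0571, 0.0816 and 0.0571, in a design whose smallest possible unadjusted p is 0.0179. After quantile normalization they were 0.38 for adipocytes, 0.48 for erythroid cells and -0.47 for tendon, with adjusted exact permutation p = 0.0363, 0.0254 and 0.0363. The neuronal sum, 0.0046 in the reported fit, turned to -0.046 after quantile normalization and -0.045 without leg arrays 1 and 4, and was not called.

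Of 4283 values of named probe sets under alternatives, 4046 kept their side, 193 no longer passed, 17 newly passed and 27 changed sign, none of them called. The sign changes were Myl2 at -0.17, Csrp3 at 0.20, Tnnt3 at 0.090, Atp2a1 at 0.41 and Myl4 at -0.14 without leg arrays 1 and 4, Tnnt3 at 0.13, Atp2a1 at 0.63 and Myl4 at -0.043 with array weights, and Tnnt3 at 0.11 after quantile normalization. The rest arose when 1 array was left out, where values ran from -0.058 to 1.19 for Myh7, -0.44 to 1.72 for Myl2, -0.13 to 0.76 for Tpm3, -0.74 to 0.19 for Atp2a2, -0.69 to 0.10 for Csrp3, -0.065 to 0.069 for Myh1, -0.17 to 0.12 for Tnnt3, -0.72 to 0.49 for Atp2a1 and -0.014 to 0.22 for Myl4. A signal near the floor limits what can be read of dim genes.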
